A study of Mus musculus with 12 samples.

Results

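The mouse genome encodes many collagens besides the type IV chains of the vascular basement membrane, and their RNA was described in newborn brains lacking Reck in vascular cells and in wild-type brains. A gene was taken where its symbol had the form of a collagen chain (Col, a number, a, a number) and was not one of the 6 type IV genes, Col4a1 to Col4a6. This gave 38 genes of the 23983 entries in each deposited table. They were grouped by the kind of assembly their chains form: 11 fibrillar collagens, 9 fibril-associated collagens, 3 basement membrane zone collagens (Col7a1, Col15a1, Col18a1), 4 transmembrane collagens, 6 beaded filament collagens (type VI), 3 short-chain network collagens (types VIII and X) and 2 others (Col26a1 and Col28a1).

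The 12 RNA-seq libraries came from mice at postnatal day 0, in 4 groups of 3 libraries: vascular knockout (vKO) cortex, vKO subcortex, wild-type (WT) cortex and WT subcortex. All mice are labelled as of mixed strain. The vKO genotype is written in the labels as Reck flex2/Δex1; Tie2Cre, and Tie2Cre is active in endothelial cells and in blood lineages, so the deletion is not limited to brain vessels. The WT libraries are labelled wild type, with no floxed allele or Cre named. Reck is a membrane-anchored protein that works with the receptor Gpr124 in Wnt7 signalling to brain endothelium and is also known as an inhibitor of matrix metalloproteinases. The tissue was whole cortex or whole subcortex, so a collagen value sums over every cell type present, and fewer cells of a type cannot be told apart from less RNA per cell. The labels do not say whether the replicates were separate animals or whether cortex and subcortex came from the same brains.

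A collagen molecule is built of 3 chains, each with long stretches in which glycine recurs at a fixed interval of 3 residues, so that the chains can wind into a triple helix. Fibrillar collagens pack side by side into fibrils, fibril-associated collagens bind to the surface of those fibrils, beaded filaments and networks are made by other families, and transmembrane collagens stay anchored in the plasma membrane unless they are shed. In brain, fibrillar collagens are made chiefly by fibroblasts of the meninges and of vessel walls, whereas several transmembrane and fibril-associated collagens are made by neurons.

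The repeat can be read from the genes themselves. In the GENCODE M21 annotation of GRCm38, the same assembly as mm10, 305 of the 647 coding exons of fibrillar collagens, or 47.1%, were exactly 54 bases long, the length of 6 Gly-X-Y triplets. The share was 25.3% in fibril-associated, 8.97% in transmembrane, 7.80% in beaded filament and 5.03% in basement membrane zone collagens, against 0.439% of the 194667 coding exons of other protein-coding genes. A triplet takes 9 bases, and exons whose length was a multiple of 9, counted by length alone and not by the triplets they hold, made up 82.5% in fibrillar, 67.3% in transmembrane, 52.9% in fibril-associated, 52.8% in basement membrane zone and 51.4% in beaded filament collagens, against 14.0% in other genes. The short-chain collagens had neither, because Col8a1, Col8a2 and Col10a1 each have only 2 coding exons and carry their helix in a single exon of 1904, 1916 and 1886 bases. The exons below come from the most abundant fibrillar collagen and from 3 collagens that the authors' deposited table calls changed. Each is shown 5′ to 3′ on the coding strand, with the glycine codon (GGN) that opens each triplet in capitals; a glycine codon inside a triplet is left in lower case. Each is the first 54-base exon of its gene that starts in frame and opens all 6 triplets with GGN. The shared frame therefore follows from how the exons were chosen. Col18a1 has 3 exons of 54 bases, of which 1 meets this condition. The residues between the glycines differ among the 4. The positions, in the order of the lines, are chr1:45325360-45325413 on the plus strand (coding exon 6), chr9:79614349-79614402 on the minus strand (coding exon 54), chr10:77067379-77067432 on the minus strand (coding exon 27) and chr3:130517684-130517737 on the plus strand (coding exon 13).
Col3a1: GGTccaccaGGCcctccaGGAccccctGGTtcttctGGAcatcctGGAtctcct
Col12a1: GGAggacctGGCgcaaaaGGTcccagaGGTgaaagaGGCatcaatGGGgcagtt
Col18a1: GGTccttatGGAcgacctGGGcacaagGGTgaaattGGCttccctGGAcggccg
Col25a1: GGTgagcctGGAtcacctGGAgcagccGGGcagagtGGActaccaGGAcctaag

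**Figure D1:**
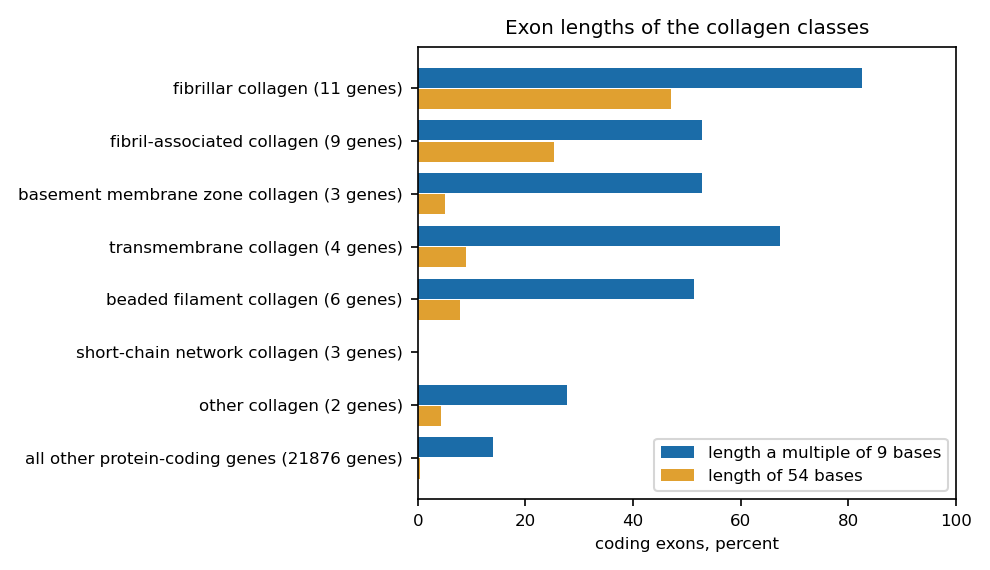
Share of coding exons (percent, horizontal axis) that are 54 bases long or a multiple of 9 bases long, by collagen class, with all other protein-coding genes below. Fibrillar collagens have 47.1% and 82.5%, against 0.439% and 14.0% in other genes.

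Expression is given as FPKM, the authors' fragment values adjusted for transcript length and for the number of mapped fragments, of which the deposited tables hold 1 value per gene and group. No spread between replicates and no depth can therefore be given, and an FPKM ratio between groups has no replicate error. Changes are given as log2((vKO FPKM + 1)/(WT FPKM + 1)), so that changes of weakly expressed genes come out smaller than their FPKM ratio. Verbs such as rose and fell, and the word called, are kept for genes whose q-value in the authors' deposited table was under 0.05. In cortex, 19.5% of the 13594 tested genes were called in that table (8.15% higher and 11.3% lower in vKO), and in subcortex 0.714% of 13735 (0.451% higher and 0.262% lower). The cortex ratio ran with transcript length over all tested genes (Spearman's rho −0.551 across 13445 genes, which are not independent), while the subcortex ratio did not (rho 0.0207 across 13593 genes). For this reason cortex ratios are set beside a trend-removed ratio, from which the median of the tested genes of like length and GC content was subtracted. Reck had 3.23 FPKM in vKO and 2.91 FPKM in WT cortex, and 3.49 FPKM in vKO and 2.37 FPKM in WT subcortex, a whole-gene value in whole tissue that does not check the deletion. Xist, which is expressed from the inactive X chromosome, had 18.6 FPKM in vKO and 0.0417 FPKM in WT cortex, and 10.2 FPKM in vKO and 0.0369 FPKM in WT subcortex. The labels give no sex, so sex and genotype cannot be told apart, and all 38 collagen genes are autosomal.

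Among these collagens, which leave out type IV, a few genes had the highest FPKM. Col3a1, the chain of type III collagen, had the highest FPKM of the 38 in every group, with 18.5 in vKO and 18.9 in WT cortex and 23.7 in vKO and 19.4 in WT subcortex. Col1a2 and Col1a1, the chains of type I collagen, had 14.4 and 11.6 FPKM in vKO cortex and 15.9 and 8.86 FPKM in WT cortex. Together these 3 fibrillar genes made up 38.1% of the summed FPKM of the 38 genes in vKO cortex and 34.02% in WT cortex, and 28.7% in vKO and 26.9% in WT subcortex. Col9a3, a chain of the fibril-associated type IX collagen, stood below Col1a1 in vKO cortex and above it in WT cortex, with 10.4 FPKM in vKO and 12.7 FPKM in WT cortex and 14.6 FPKM in vKO and 11.9 FPKM in WT subcortex. Col9a2, its partner chain, had 2.84 FPKM in vKO and 3.73 FPKM in WT cortex but 15.4 FPKM in vKO and 12.9 FPKM in WT subcortex. Col26a1, a collagen first found in testis and ovary, had 8.13 FPKM in vKO and 7.43 FPKM in WT cortex and 13.8 FPKM in vKO and 13.0 FPKM in WT subcortex. In subcortex Col9a2, Col9a3 and Col26a1 all exceeded Col1a1, in vKO and in WT. All 38 had an FPKM above 0 in all 4 groups, and 23 reached 1 FPKM in each group other than WT subcortex, where 24 did.

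A set of 12 collagens was too low for the authors' test in both tissues: Col5a3, Col24a1, Col14a1, Col20a1, Col7a1, Col13a1, Col17a1, Col6a4, Col6a5, Col6a6, Col10a1 and Col28a1. Col9a1 and Col27a1 were tested in subcortex only. The 14 genes not tested in cortex lay between 0.0908 and 0.490 FPKM in vKO and between 0.0714 and 0.614 FPKM in WT, and the 12 not tested in subcortex between 0.160 and 0.758 FPKM in vKO and between 0.135 and 0.814 FPKM in WT. Among them were Col10a1, the collagen of hypertrophic cartilage, Col7a1, the anchoring fibril collagen of skin, and Col17a1, a hemidesmosome collagen of epithelia. All counts below are over the 24 genes tested in cortex and the 26 tested in subcortex.

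**Figure D2:**
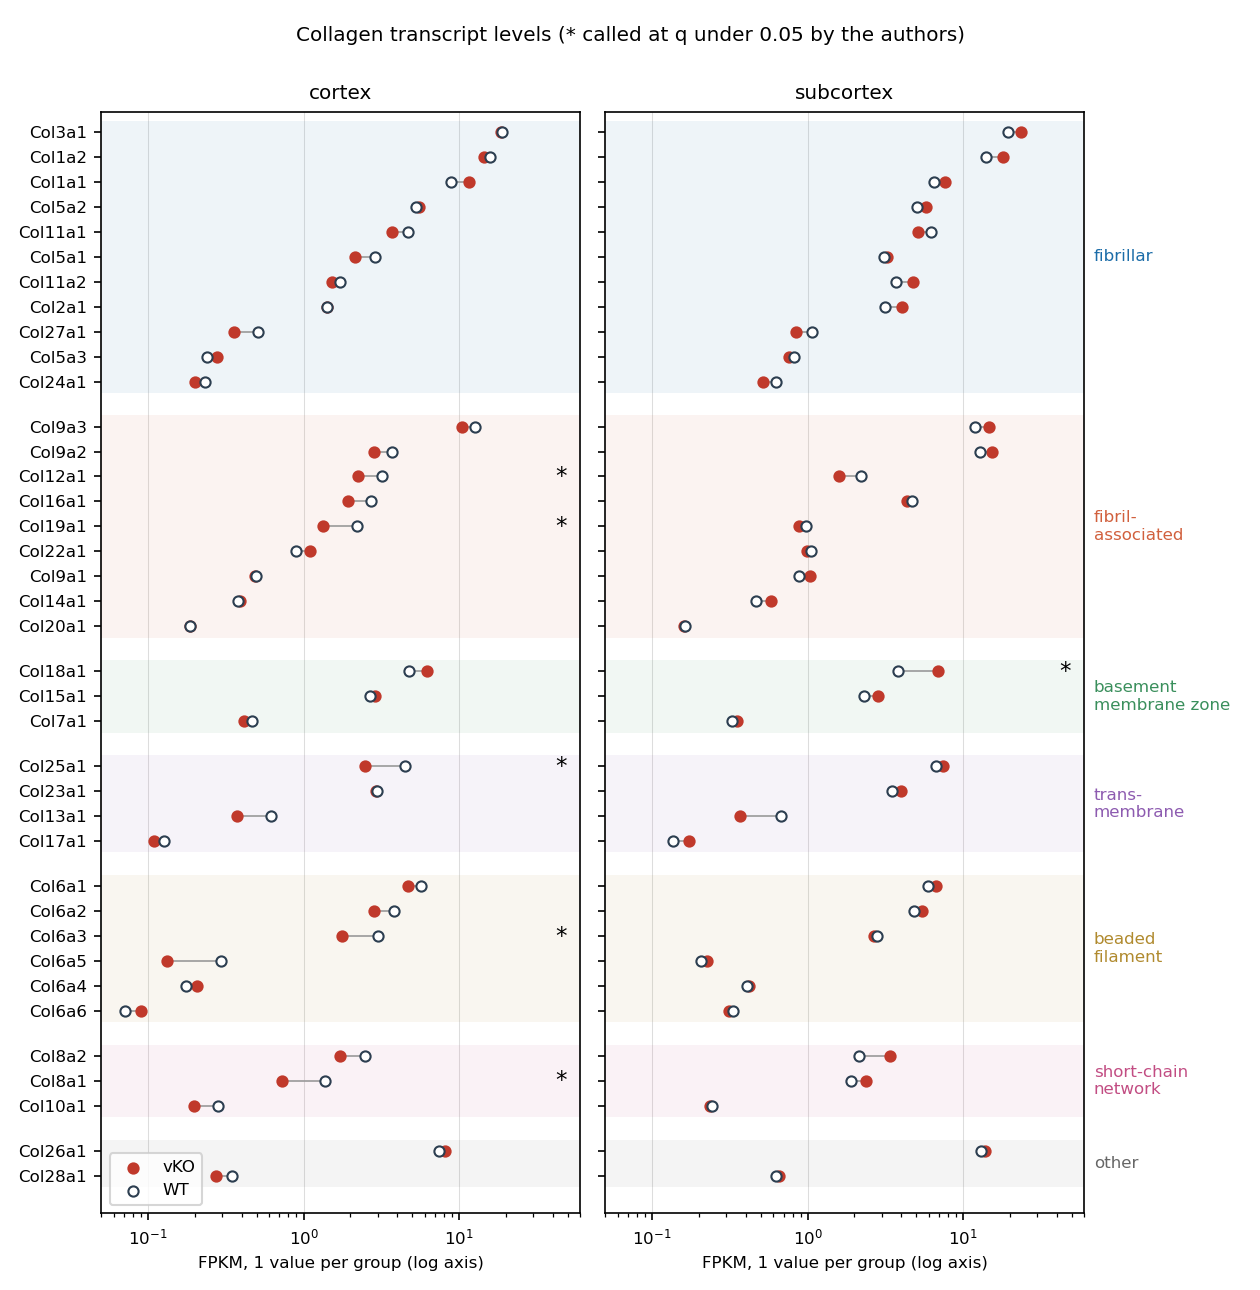
FPKM of the 38 collagen genes (log axis) in vKO and in WT, for cortex and for subcortex, ordered by class, 1 authors' value per gene and group with no error available. Col3a1 is highest in all 4 groups, at 18.5 to 23.7 FPKM, and the genes not tested lie below 1 FPKM.

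In cortex, 5 of the 24 tested collagens were called lower in vKO and 0 higher by the authors' deposited table, although 1 of the 5, Col12a1, had a trend-removed ratio above 0. The 5 are 20.8% of the tested collagens, against 11.3% called lower among all tested genes and 33.1% among the 2969 tested genes with transcripts of at least 5000 bases. Of the 17 tested collagens of that length 4 were called lower (23.5%), and of the 7 shorter ones 1 (14.3%). At an unadjusted p-value under 0.05 in the authors' deposited table, 10 of the 24 collagens were lower and 2 higher, where 17.1% of all tested genes were lower and 15.1% higher. The share among genes of at least 5000 bases was not taken at this p-value. The median ratio was −0.25 over the 24 collagens, against 0.00 over all tested genes and −0.27 over those of at least 5000 bases. With the trend removed the collagen median was 0.12, so its sign depends on that step.

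The fibrillar collagens, the scaffold of the meninges and vessel walls, had 0 calls among 8 tested in cortex in the authors' deposited table. Their summed FPKM over all 11 genes was 59.6 in vKO and 60.6 in WT. Their median ratio was −0.07, and 0.24 with the trend removed. Col3a1 had a ratio of −0.03, or 0.22 with the trend removed, at q = 0.933, and Col1a2 a ratio of −0.14, or 0.19 with the trend removed, at q = 0.564 in the authors' deposited table. Col1a1 had the highest ratio of the 24 collagens, 0.35, or 0.68 with the trend removed, at q = 0.0983 in the authors' deposited table. Col5a2, a chain of type V collagen, which starts fibrils, had 5.51 FPKM in vKO and 5.31 FPKM in WT cortex, a ratio of 0.04, or 0.30 with the trend removed. Col11a1, a chain of the fibrillar type XI collagen known from cartilage, had 3.69 FPKM in vKO and 4.71 FPKM in WT, a ratio of −0.28, or 0.10 with the trend removed, at q = 0.110 in the authors' deposited table. The other tested fibrillar genes, Col2a1, Col5a1 and Col11a2, lay between 1.41 and 2.15 FPKM in vKO and between 1.41 and 2.87 FPKM in WT.

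Among fibril-associated collagens, 2 of 6 tested genes were called lower in cortex by the authors' deposited table, Col19a1 and Col12a1, and the Col12a1 ratio was above 0 with the trend removed. Col19a1 (chromosome 1, 24261890 to 24587472, minus strand), a collagen made by interneurons in mouse brain, had 1.34 FPKM in vKO and 2.22 FPKM in WT, which is 0.604 times the WT value. Its ratio was −0.46, or −0.34 with the trend removed, at q = 0.00202 in the authors' deposited table. Col12a1 (chromosome 9, 79598991 to 79718831, minus strand), which coats type I fibrils in tendon and skin, had 2.24 FPKM in vKO and 3.20 FPKM in WT. Its ratio was −0.37 at q = 0.0135 in the authors' deposited table, but 0.06 with the trend removed, and its transcript, at 11511 bases, is the longest of the 5 called. Col9a3 and Col9a2 had ratios of −0.27 and −0.30, or −0.25 and −0.28 with the trend removed, at q = 0.215 and q = 0.186 in the authors' deposited table. Col16a1 had a ratio of −0.33, or −0.02 with the trend removed, at q = 0.0641 in the authors' deposited table. Col22a1 went the other way, with a ratio of 0.16, or 0.63 with the trend removed, at q = 0.352 in that table. The summed FPKM of the class was 20.9 in vKO and 26.5 in WT, and its median ratio was −0.32, or −0.14 with the trend removed.

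Col25a1 (chromosome 3, 130131501 to 130599877, plus strand) had the lowest ratio of the tested collagens in cortex. It encodes a neuronal transmembrane collagen whose shed ectodomain was identified in amyloid plaques. Its FPKM was 2.49 in vKO and 4.47 in WT, which is 0.557 times the WT value. The ratio was −0.65, or −0.52 with the trend removed, at q = 0.000806 in the authors' deposited table, the lowest that the table lists for cortex. Col23a1, the other tested transmembrane collagen, had 2.93 FPKM in vKO and 2.97 FPKM in WT, a ratio of −0.02, or 0.31 with the trend removed.

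Of the beaded filament collagens, Col6a3 alone of 3 tested genes was called lower in cortex by the authors' deposited table. Type VI collagen is a microfibril of interstitial and perivascular matrix, and Col6a3 (chromosome 1, 90765923 to 90843971, minus strand) encodes its longest chain. It had 1.77 FPKM in vKO and 3.01 FPKM in WT, with a ratio of −0.54 at q = 0.000806 in the authors' deposited table, and of −0.06 with the trend removed. Col6a1 had 4.73 FPKM in vKO and 5.73 FPKM in WT, and Col6a2 2.82 FPKM in vKO and 3.797 FPKM in WT, at q = 0.282 and q = 0.111 in the authors' deposited table. All 3 ratios were below 0, also with the trend removed, where Col6a1 was at −0.08 and Col6a2 at −0.11.

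Col8a1 (chromosome 16, 57624258 to 57754737, minus strand), a chain of the network collagen of vessel walls and of the corneal endothelial membrane, had 0.725 FPKM in vKO and 1.37 FPKM in WT cortex. Its ratio was −0.46, or −0.40 with the trend removed, at q = 0.00353 in the authors' deposited table. Its partner chain Col8a2 had 1.72 FPKM in vKO and 2.49 FPKM in WT, with a ratio of −0.36, or −0.20 with the trend removed, and q = 0.0565 in the authors' deposited table. Thus 3 of the 5 cortex calls, Col25a1, Col19a1 and Col8a1, kept a ratio of −0.34 or lower with the trend removed.

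The basement membrane zone collagens stood on the other side of 0 in cortex. Col18a1, which carries heparan sulfate chains and releases the fragment endostatin, had 6.20 FPKM in vKO and 4.77 FPKM in WT, with a ratio of 0.32, or 0.65 with the trend removed, and q = 0.109 in the authors' deposited table. Col15a1, its closest relative, had 2.90 FPKM in vKO and 2.68 FPKM in WT, a ratio of 0.08, or 0.30 with the trend removed. The median of these 2 genes was 0.20, or 0.48 with the trend removed.

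**Figure D3:**
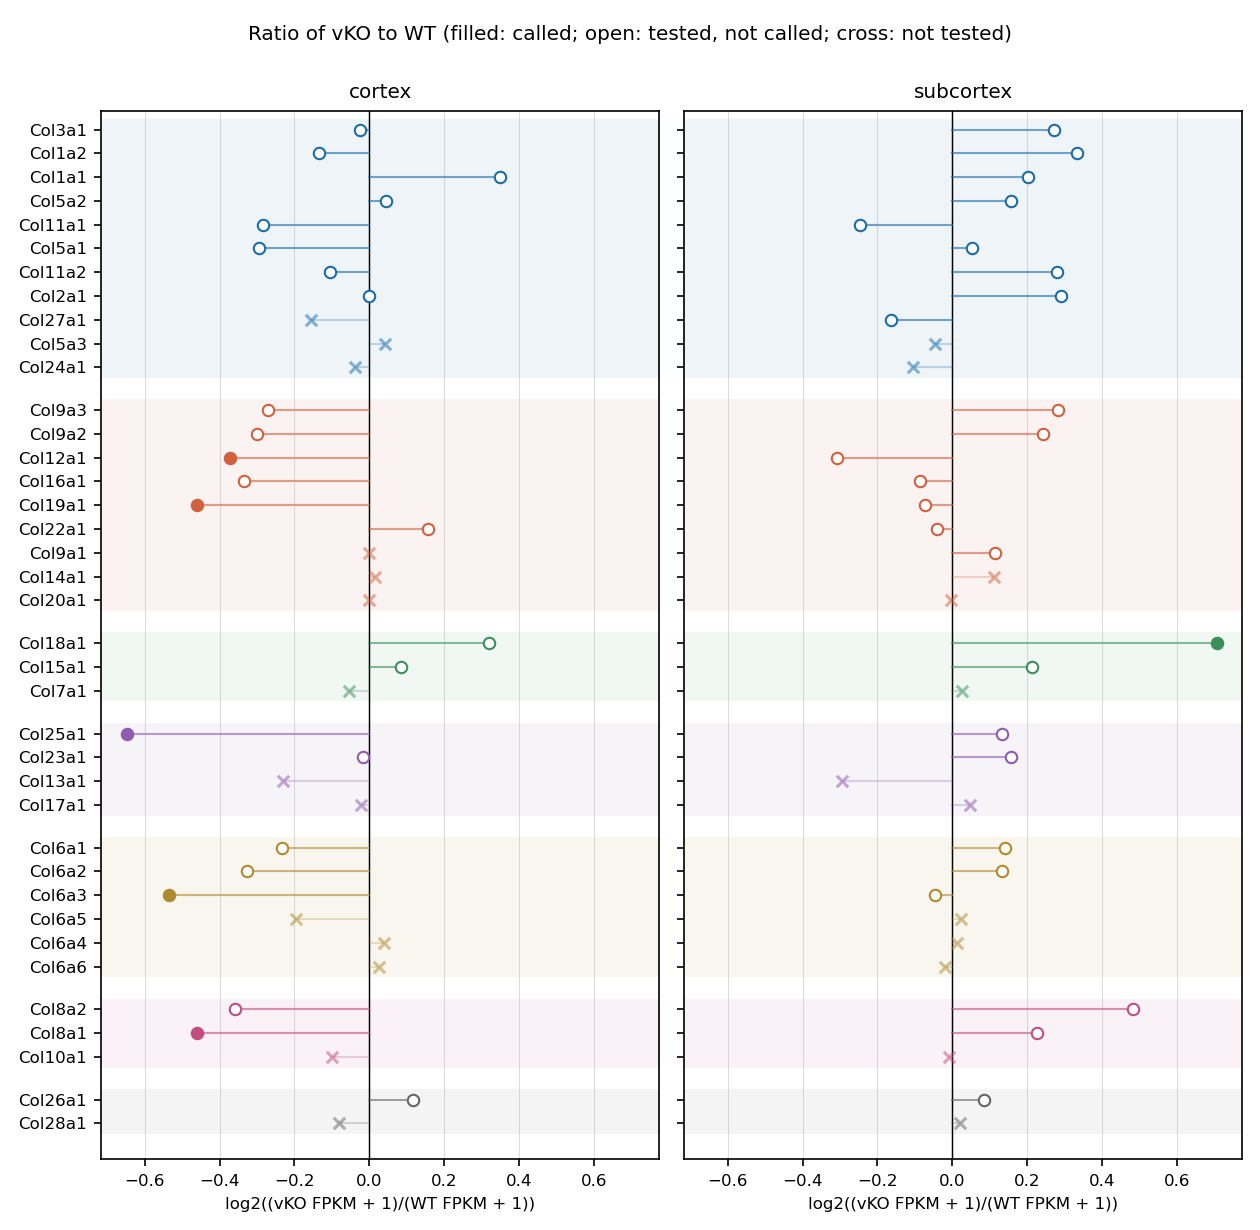
log2 ratio of vKO over WT (FPKM + 1) of the 38 collagens in cortex and in subcortex, with 1 band per class, filled points for the authors' calls, open points for genes tested and not called, and crosses for genes not tested. In cortex 18 of 24 tested ratios lie below 0 and the 5 called lower are at −0.37 to −0.65, of which Col12a1 is at 0.06 with the trend removed (not drawn); in subcortex 19 of 26 tested ratios lie above 0 and Col18a1, at 0.71, is the 1 called.

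The length trend among all genes touches most of these ratios. In the shortest decile of tested genes in cortex, with a median length of 860 bases, the median ratio was 0.36, and 28.2% were called higher and 0.446% lower in the authors' deposited table. In the longest decile, with a median of 8390 bases, the median ratio was −0.35, and 0.520% were called higher and 46.6% lower. The 5 collagens called lower have transcripts of 4266 to 11511 bases. Across the 24 tested collagens themselves rho between ratio and length was −0.026. In subcortex it was −0.411 across the 26 tested collagens, although all tested genes there had a rho of 0.0207. The long fibrillar genes lay above the ratio usual for their length, with all 8 trend-removed ratios above 0, while 6 of the 7 tested collagens under 5000 bases lay below it. RNA quality was not measured here, and the part of the length trend in these results was not tested beyond the trend-removed values.

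**Figure D4:**
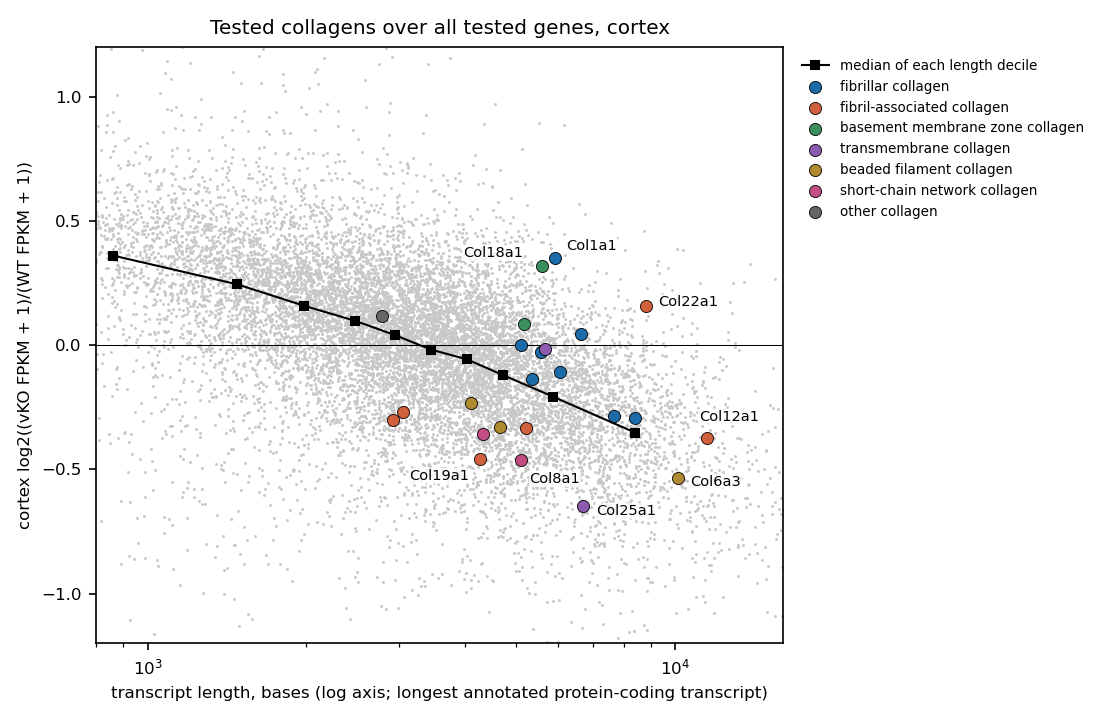
Cortex log2 ratio of vKO over WT against transcript length (bases, log axis) for all tested genes (grey), with the median of each length decile (line) and the 24 tested collagens (points). The decile medians run between 0.36 at 860 bases and −0.35 at 8390 bases, Col25a1 lies at −0.65, and genes outside 800 to 16000 bases or beyond 1.2 on either side of 0 are not drawn.

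In subcortex, Col18a1 was called higher in vKO, and 0 collagens were called lower, among 26 tested in the authors' deposited table. That is 3.85% of the tested collagens called higher, against 0.451% of all tested genes, and it rests on 1 gene. At an unadjusted p-value under 0.05 in the authors' deposited table, 2 of the 26 collagens were higher and 1 lower, where 3.49% of all tested genes were higher and 2.82% lower. The median ratio was 0.15, or 0.10 with the trend removed, against 0.00 over all tested genes, and 19 of the 26 ratios were above 0. The summed FPKM of the 38 genes was 172 in vKO and 149 in WT subcortex, and 117 in vKO and 128 in WT cortex.

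Col18a1 (chromosome 10, 77052178 to 77166548, minus strand) had 6.89 FPKM in vKO and 3.83 FPKM in WT subcortex, a 1.80-fold higher value in vKO. Its ratio was 0.71, or 0.62 with the trend removed, with a p-value of 5e-05, the lowest listed, and q = 0.0104 in the authors' deposited table. The main type IV chains, which share basement membranes with type XVIII collagen, were also called higher in subcortex. Col4a1 had 37.2 FPKM in vKO and 20.6 FPKM in WT subcortex, with a q-value of 0.0104, and Col4a2 22.1 FPKM in vKO and 13.4 FPKM in WT, with 0.0264, in the authors' deposited table. In cortex Col4a1 had 33.2 FPKM in vKO and 33.3 FPKM in WT, at q = 0.985 in the authors' deposited table. Col4a2 had 16.1 FPKM in vKO and 22.0 FPKM in WT cortex and was called lower there, at q = 0.0439 in the authors' deposited table, with a ratio of −0.43, or −0.09 with the trend removed. Col18a1 overlaps Slc19a1, a folate carrier gene on the opposite strand, and whether strand was used in the authors' counting was not given in the sources used here. Without strand, reads of the 2 genes cannot be told apart. Slc19a1 had 8.42 FPKM in vKO and 7.51 FPKM in WT subcortex, at q = 0.999 in the authors' deposited table.

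Col18a1 has 2 annotated starts, known to give a short form made by vessels and many epithelia and longer forms made chiefly in liver, and the deposited FPKM sums over both. The promoter windows of both starts, 250 bases before to 50 bases after each, are shown because Col18a1 is the 1 collagen called in subcortex. They are RefSeq sequences of GRCm38.p6 on the minus strand, 5′ to 3′, and capitals mark a match of a GC box (GGGCGG) or a CCAAT box (CCAAT) on either strand. The upstream window, chr10:77166481-77166780, has a GC content of 63.3%, 3 GC boxes and 1 CCAAT box. The downstream window, chr10:77113656-77113955, has a GC content of 59.7% and neither box.
Col18a1 upstream start: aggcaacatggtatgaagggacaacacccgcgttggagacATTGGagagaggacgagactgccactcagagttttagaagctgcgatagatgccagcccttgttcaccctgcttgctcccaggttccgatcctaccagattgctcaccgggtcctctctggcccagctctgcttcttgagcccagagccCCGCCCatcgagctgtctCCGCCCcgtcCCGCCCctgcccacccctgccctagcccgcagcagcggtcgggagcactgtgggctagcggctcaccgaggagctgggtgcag
Col18a1 downstream start: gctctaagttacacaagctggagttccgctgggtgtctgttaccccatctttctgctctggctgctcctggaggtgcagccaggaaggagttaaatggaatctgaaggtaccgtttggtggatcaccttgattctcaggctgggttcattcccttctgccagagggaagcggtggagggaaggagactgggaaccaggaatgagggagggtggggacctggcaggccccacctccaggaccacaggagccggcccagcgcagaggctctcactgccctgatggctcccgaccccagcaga

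Of the 38 genes, 30 had an entry among the RefSeq promoters, with 33 windows. A GC box was found in 19 of the 33 windows (57.6%), against 35.7% of all 32851 promoters of the same length. A CCAAT box was found in 10 (30.3%, against 37.4%), a TATA box (TATAAA) in 5 (15.2%, against 13.6%) and a TCF core (CTTTGA), the motif read by the nuclear partners of Wnt signalling, in 9 (27.3%, against 16.0%). Each motif was searched on both strands by itself, and whether matches of different motifs share letters was not checked. Neither Col18a1 window held a TATA box or a TCF core, which says only that these letters are not in these windows.

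The fibrillar collagens had 0 calls among 9 tested in subcortex in the authors' deposited table, with a summed FPKM of 74.2 in vKO and 63.7 in WT and a median ratio of 0.20. Col3a1 had a ratio of 0.27 with a q-value of 0.963 and Col1a2 of 0.33 with 0.7997 in the authors' deposited table. Col1a2 had 18.0 FPKM in vKO and 14.1 FPKM in WT, and Col1a1 7.59 FPKM in vKO and 6.46 FPKM in WT. Col5a2 had 5.73 FPKM in vKO and 5.04 FPKM in WT. Col11a1 went the other way, with 5.09 FPKM in vKO and 6.22 FPKM in WT, at q = 0.927 in the authors' deposited table.

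None of the genes called lower in cortex was called in subcortex in the authors' deposited table. Col25a1 had 7.46 FPKM in vKO and 6.72 FPKM in WT subcortex. Col8a1 had 2.38 FPKM in vKO and 1.89 FPKM in WT, and its partner Col8a2 3.41 FPKM in vKO and 2.15 FPKM in WT, at q = 0.963 and q = 0.194 in the authors' deposited table. Col6a3 had 2.66 FPKM in vKO and 2.77 FPKM in WT, beside Col6a1 with 6.64 FPKM in vKO and 5.93 FPKM in WT and Col6a2 with 5.41 FPKM in vKO and 4.85 FPKM in WT. Col19a1 had 0.881 FPKM in vKO and 0.980 FPKM in WT. Col12a1 had 1.58 FPKM in vKO and 2.199 FPKM in WT, a ratio of −0.31 with a p-value of 0.009 and q = 0.371 in the authors' deposited table.

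Of the 24 collagens tested in both tissues, 13 had a ratio below 0 in cortex and above 0 in subcortex, 1 had the opposite pair of signs, 5 were below 0 in both and 5 above 0 in both. With the trend removed in both tissues these counts were 7, 4, 3 and 10, so many of the sign differences between the tissues depend on that step. None of the 24 was called in both by the authors' deposited tables. The difference between the tissues was not tested, since 1 value per group allows no interaction, and the 2 tables were normalized separately. The same counts over all tested genes were not taken, so they cannot be read as particular to collagens. Tested genes of at least 5000 bases had a median ratio of −0.27 in cortex and 0.00 in subcortex.

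Class by class, short-chain network collagens had a median ratio of −0.41 in cortex, or −0.30 with the trend removed, and of 0.36 in subcortex, or 0.32 (2 genes each). Their summed FPKM was 2.64 in vKO and 4.14 in WT cortex, and 6.02 in vKO and 4.28 in WT subcortex. Beaded filament collagens had a median of −0.33 in cortex, or −0.08 with the trend removed, and of 0.13 in subcortex, or 0.07 (3 genes each). Transmembrane collagens had −0.33 in cortex, or −0.10 with the trend removed, and 0.14 in subcortex, or 0.11 (2 genes each). Basement membrane zone collagens had 0.20 in cortex, or 0.48 with the trend removed, and 0.46 in subcortex, or 0.39 (2 genes each). Fibril-associated collagens had −0.32 in cortex, or −0.14 with the trend removed (6 genes), and −0.04 in subcortex, or −0.11 (7 genes). These medians rest on few genes and none was tested.

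The ratio between chains of the same collagen type, which differ in length, was taken from FPKM and so is per length. Type I collagen joins 2 chains of Col1a1 with 1 of Col1a2, yet Col1a2 FPKM exceeded Col1a1 FPKM in all 4 groups, by 1.24 times in vKO and 1.79 times in WT cortex and by 2.38 times in vKO and 2.18 times in WT subcortex. For type IX collagen, Col9a3 FPKM was 3.66 times Col9a2 FPKM in vKO and 3.42 times in WT cortex, but 0.952 times in vKO and 0.923 times in WT subcortex. Col9a1, its remaining chain, was far lower than both, and Col9a3 FPKM was 21.2 times Col9a1 FPKM in vKO and 25.9 times in WT cortex, and 14.1 times in vKO and 13.5 times in WT subcortex. For type VI collagen, Col6a1 FPKM was 2.68 times Col6a3 FPKM in vKO and 1.90 times in WT cortex, and 2.50 times in vKO and 2.14 times in WT subcortex. For type VIII collagen, Col8a2 FPKM was 2.37 times Col8a1 FPKM in vKO and 1.81 times in WT cortex, and 1.43 times in vKO and 1.14 times in WT subcortex. Type XI collagen had Col11a1 FPKM at 2.43 times Col11a2 FPKM in vKO and 2.75 times in WT cortex, and at 1.08 times in vKO and 1.67 times in WT subcortex. These ratios carry no replicate error, and Col9a3 overlaps Tcfl5 on the opposite strand. The cortex trend with transcript length is present in FPKM and was not removed from them. Col6a1 and Col6a3, of 4100 and 10106 bases, had cortex ratios of −0.23 and −0.54, but −0.08 and −0.06 with the trend removed. Col1a1 and Col1a2, of 5930 and 5348 bases, still differed, at 0.68 and 0.19 with the trend removed.

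More collagens had a higher FPKM in subcortex than in cortex. Of the 26 genes that reached 1 FPKM in at least 1 group, 21 were higher in vKO subcortex than in vKO cortex and 5 lower, with a median log2 ratio of subcortex over cortex of 0.42. In WT brains 16 were higher in subcortex and 10 lower, with a median of 0.10. A difference of at least 2-fold was seen in 8 genes in vKO, all higher in subcortex, and in WT in 4 genes higher and 1 lower in subcortex. The levels come from separately normalized tables and were not tested. The same counts over all genes were not taken, so they cannot be read as particular to collagens. The length trend of the cortex ratio was not removed from these levels, so the vKO and WT counts are not compared further.

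Col9a2 showed the widest regional difference of those described, with 5.41 times the cortex FPKM in vKO subcortex and 3.44 times in WT subcortex. The cartilage collagens Col11a2 and Col2a1 were at 3.11 and 2.88 times the cortex FPKM in vKO subcortex, and at 2.17 and 2.22 times in WT subcortex. Col25a1 was at 2.996 times the cortex FPKM in vKO subcortex and at 1.503 times in WT, and Col8a1 at 3.28 times in vKO and 1.38 times in WT. Col19a1 ran the other way, with 1.52 times more FPKM in vKO cortex than in vKO subcortex and 2.26 times more in WT cortex. These 3 genes are among those called lower in vKO cortex by the authors' deposited table. Their vKO ratios between the tissues use the same vKO cortex values as those calls, so they are no separate observation.

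**Figure D5:**
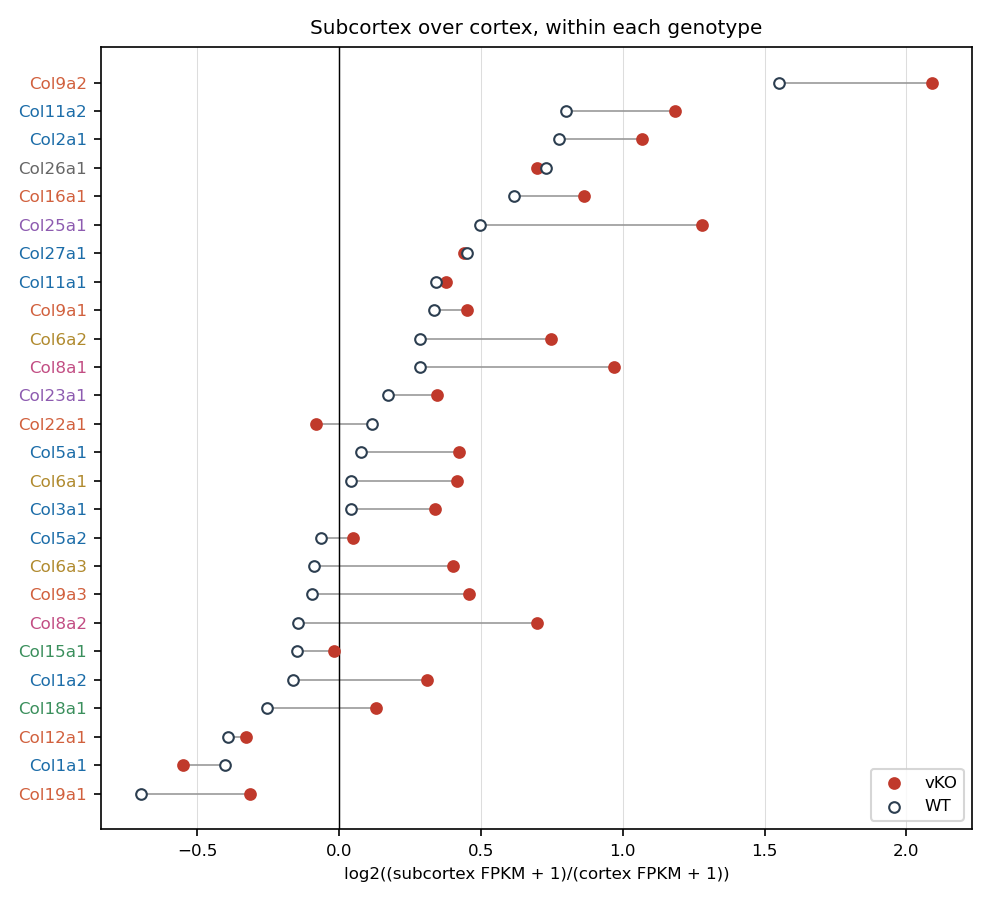
log2 ratio of subcortex over cortex (FPKM + 1) of the 26 collagens with at least 1 FPKM in some group, for vKO and for WT brains, from separately normalized tables. Of the 26, 21 lie above 0 in vKO and 16 in WT, and Col9a2 is the farthest to the right in both. The same counts over all genes were not taken, and the cortex length trend was not removed.

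Some markers of other cell types were called in cortex, in both directions. Of 6 endothelial markers, 3 were called lower in the authors' deposited table (50%, against 11.3% of all tested genes). The summed FPKM of the list, of which Cldn5 was the largest part, was 50.7 in vKO and 78.8 in WT. Cldn5, a tight junction protein, had 24.6 FPKM in vKO and 46.8 FPKM in WT, and Kdr, a VEGF receptor, 5.30 FPKM in vKO and 10.98 FPKM in WT. Flt1, another VEGF receptor, had 1.96 FPKM in vKO and 3.42 FPKM in WT, a ratio of −0.58, or −0.12 with the trend removed. The 3 not called were Pecam1, Tek and Cdh5, with ratios of 0.34, −0.19 and −0.02. With the trend removed these were 0.35, −0.09 and 0.11, so 2 of the 6 markers were above 0. Of 9 mural cell markers, 3 were called higher (Kcnj8, Myl9 and Acta2) and 2 lower (Notch3 and Cspg4) in the authors' deposited table, but the Cspg4 ratio was −0.41, or 0.14 with the trend removed. That is 33.3% of the mural list called higher and 22.2% lower, against 8.15% and 11.3% of all tested genes. With the trend removed 8 of the 9 were above 0, and their summed FPKM was 72.4 in vKO and 62.6 in WT. Of 10 meningeal fibroblast markers, 2 were called higher (Lum and Dcn) and 2 lower (Slc22a6 and Lama1, the Lama1 ratio being −0.37, or 0.10 with the trend removed) in the authors' deposited table. That is 20% in each direction, against 8.15% higher and 11.3% lower among all tested genes. The sums were 244 FPKM in vKO and 210.28 FPKM in WT, of which Ptgds alone had 188 FPKM in vKO and 161 FPKM in WT. Of the 10 ratios 7 were above 0 and 3 below.

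Neuronal markers of deeper brain were also called in cortex, where 2 of 3 were tested and 11.3% of all tested genes were called lower. Tcf7l2, a thalamic factor, had 1.07 FPKM in vKO and 4.71 FPKM in WT cortex, and Lhx9 2.29 FPKM in vKO and 3.76 FPKM in WT, both called lower in the authors' deposited table. The sum of that list was 3.804 FPKM in vKO and 9.23 FPKM in WT cortex, against 66.5 FPKM in vKO and 71.5 FPKM in WT subcortex. Markers of deep brain thus differed between the cortex groups, and their part in the cortex values of Col25a1, Col8a1 and other collagens with more FPKM in subcortex was not tested. Choroid plexus markers had 0 calls among 4 tested in the authors' deposited table, with sums of 498 FPKM in vKO and 518 FPKM in WT cortex.

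In subcortex, where Col18a1 rose, 2 of 6 endothelial markers, Pecam1 and Cdh5, and 2 of 9 mural markers, Acta2 and Pdgfrb, were called higher in the authors' deposited table. These are 33.3% and 22.2% of the lists, against 0.451% of all tested genes. Of the 6 endothelial ratios 4 were above 0, and of the 9 mural ratios 8. Pecam1 had 10.1 FPKM in vKO and 5.12 FPKM in WT, and Cdh5 6.45 FPKM in vKO and 3.62 FPKM in WT. The summed FPKM of the endothelial list was 67.3 in vKO and 63.2 in WT, and that of the mural list 70.7 in vKO and 61.1 in WT. Meningeal fibroblast markers had 1 call of 10, Slc22a6, lower in the authors' deposited table (10%, against 0.262% of all tested genes). Their sums were 345 FPKM in vKO and 366 FPKM in WT. Ptgds alone had 293 FPKM in vKO and 318 FPKM in WT, so the sums mostly follow that gene. Of the 10 ratios 5 were above 0 and 5 below. Choroid plexus, an epithelium with abundant matrix and vessels, had 0 calls among 4 tested in the authors' deposited table. All 4 ratios were above 0, with a median of 0.51, or 0.49 with the trend removed. Ttr had 719 FPKM in vKO and 484 FPKM in WT, at q = 0.267 in the authors' deposited table. The part of these cell types in the Col18a1 value was not tested.

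Col2a1 and the type IX and XI collagens are also made by cartilage, and the part of such tissue in their values was not tested. Of 8 markers of cartilage and bone none was tested in cortex, at 0.0143 to 0.806 FPKM in vKO and 0.0448 to 0.596 FPKM in WT. In subcortex 1 was tested (Hapln1, 0.989 FPKM in vKO and 0.845 FPKM in WT), and the 8 lay between 0.0249 and 0.989 FPKM in vKO and between 0 and 0.845 FPKM in WT, where 2 are listed at 0.

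Collagen chains are hydroxylated, folded and assembled in the endoplasmic reticulum. Of 17 tested genes of collagen folding and modification, 2 were called higher and 0 lower in cortex in the authors' deposited table. The 2 are 11.8% of the tested list, near the 8.15% called higher among all tested genes. Ppib, a prolyl isomerase of the endoplasmic reticulum, had 188 FPKM in vKO and 131 FPKM in WT, with a ratio of 0.51, or 0.15 with the trend removed, at q = 0.00445 in the authors' deposited table. Serpinh1, the collagen chaperone Hsp47, had 50.9 FPKM in vKO and 38.2 FPKM in WT, with a ratio of 0.41, or 0.31 with the trend removed, at q = 0.0312 in the authors' deposited table. In subcortex 0 of the 17 were called in that table.

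Procollagen processing and cross-linking genes had 0 calls among 9 tested in either tissue in the authors' deposited table. Bmp1, the procollagen C-proteinase, had 12.1 FPKM in vKO and 13.4 FPKM in WT cortex, and Adamts3, a procollagen N-proteinase, 9.53 FPKM in vKO and 11.5 FPKM in WT cortex. Of 6 tested collagen receptors 1 was called lower in cortex in the authors' deposited table (16.7%, against 11.3% of all tested genes). It was Adgrg1, listed as Gpr56, the receptor of type III collagen at the surface of the developing cortex. Gpr56 had 16.6 FPKM in vKO and 22.7 FPKM in WT, with a ratio of −0.43, or −0.28 with the trend removed, at q = 0.0194 in the authors' deposited table, beside a Col3a1 ratio of −0.03. In subcortex 0 of 7 tested receptors were called.

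Small leucine-rich proteoglycans, which bind to collagen fibrils and set their width, were called in both directions in cortex. Of 7 tested, 3 were called higher and 1 lower in cortex in the authors' deposited table. These are 42.9% and 14.3%, against 8.15% higher and 11.3% lower among all tested genes. Dcn had 22.7 FPKM in vKO and 15.4 FPKM in WT, Ogn 11.5 FPKM in vKO and 7.02 FPKM in WT, and Lum 4.12 FPKM in vKO and 2.40 FPKM in WT, with trend-removed ratios of 0.33, 0.50 and 0.46. Bgn had 4.43 FPKM in vKO and 6.599 FPKM in WT, with a ratio of −0.49, or −0.59 with the trend removed, at q = 0.0227 in the authors' deposited table. In subcortex 0 of 6 tested were called, and Dcn had 17.8 FPKM in vKO and 12.4 FPKM in WT, at q = 0.308 in the authors' deposited table.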

How the data were processed

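RNA-seq of 12 libraries (4 groups of 3) was deposited as 2 comparison tables, one for each tissue, of 23983 entries. The library kit was TruSeq stranded total RNA, per the labels' protocols. HISAT2 2.0.1, Cufflinks 2.2.1, Cuffdiff and mm10 are listed, per the submitters' processing notes, without the order of steps. The annotation and the strand setting are not given in the sources used here. Each entry holds 1 FPKM value per group, made by the authors from the group's libraries, per the file headers. Its p-value and q-value come from a test that the authors ran, per the file headers. Adjusting the deposited p-values over the tested genes by the Benjamini-Hochberg method gave q-values within 5.2e-07 of theirs. The deposited test score was not used. The letters W and M in the sample columns were read as WT and vKO, the only genotypes in the labels.

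With 1 value per group there is no depth, no SD and no test over samples, so the authors' calls at a q-value under 0.05 were counted. If replicates were technical, those p-values measure only technical spread. Ratios are log2((vKO FPKM + 1)/(WT FPKM + 1)). The trend-removed ratio subtracts the median ratio of the tested genes in the same of 100 cells (10 bins of transcript length by 10 of GC content), with the longest protein-coding transcript of GENCODE M21. It was tested on simulated data, with changes larger than any collagen ratio here. That test therefore does not cover the sign of small trend-removed ratios. Alternatives were a pseudocount of 0.1, a minimum of 1 FPKM, centring on the median of all tested genes, a q-value under 0.01 and a 1.5-fold minimum. Python 3.11.15, pandas 2.3.3, numpy 2.4.6, scipy 1.17.1 and matplotlib 3.10.9 were used.

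The collagens, classes, 4 related lists and 7 marker lists (97 genes, all found) were chosen with earlier results of these data known. The result of 1 marker list is not reported here. Values in full are given for collagens called in at least 1 tissue, with at least 5 FPKM in at least 1 group, or highest in their class. In the other lists, the called members of lowest q (at most 4) or else the 2 of highest FPKM are named. Further genes named, the fifth called mural marker among them, were chosen after their values were seen.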

Additional observations from a re-analysis of the deposited data

How the results depend on the processing

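No paired analysis was possible because the deposited tables hold 1 value per group. For the same reason leaving out each replicate was not run. The 5 cortex calls became 4 at a q-value under 0.01, 4 with a 1.5-fold minimum and 4 where the trend-removed ratio had to share their sign, an alternative chosen after seeing the data. The 1 subcortex call, Col18a1, became 0 at a q-value under 0.01, since 0.0104 is the lowest q-value listed there. Removing the length and GC trend turned the cortex median over tested collagens to 0.12, against −0.25, that over fibrillar collagens to 0.24, against −0.07, and Col12a1 to 0.0595, against −0.37. Of 50 single-gene ratios it moved 21 by over 0.1, and it turned the sign of 8 of 24 in cortex (Col12a1, and the uncalled Col1a2, Col2a1, Col3a1, Col5a1, Col11a1, Col11a2 and Col23a1) and of 1 of 26 in subcortex (Col5a1). A pseudocount of 0.1 moved 13 by that much with no change of sign, and centring moved 0. The cause of the cortex length trend was not tested.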
